A study of Mus musculus with 2 samples.

Results

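Stem barcodes outside S and M phase made up 254 of the 9872 cell barcodes that passed the quality filters, or 2.57% (95% exact binomial interval 2.27 to 2.90%), in sorted small intestinal epithelium of 1 mouse. The members were chosen by RNA counts. A barcode was a member when its unique molecular identifiers (UMIs, each standing for 1 captured RNA molecule) of Lgr5, Smoc2, Htr4, Cyyr1, Tnfrsf19 and Ascl2 summed to 5 or more. Its summed UMIs of 9 mitotic genes (Mki67, Top2a, Knl1, Cenpe, Cenpf, Bub1, Kif15, Kif20b and Anln) also had to be below 6, and those of 8 S-phase genes (Pola1, Mcm3, Mcm5, Mcm6, Rrm2, Hells, Atad2 and Brip1) below 5. The members were compared with 1732 cycling barcodes, which reached either phase threshold whatever their stem sum, and with the 7886 remaining barcodes. Of the 743 passing barcodes with a stem sum of 5 or more, 34.2% were members and 489 were cycling.

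The mouse was 55 weeks old and carried a mutation of TrnA, which encodes the tRNA for alanine in mitochondrial DNA (mtDNA), at a load of 73%. Intestinal epithelial cells were released from the small intestine, stained for CD45, CD31, TER-119 and CD326 and sorted by flow cytometry. The series holds 2 libraries of the same cells, 1 for RNA and 1 for open chromatin (ATAC), and all 12363 deposited barcodes were shared by both. The series title names acute colitis, but the labels give this animal no colitis treatment, no sort gates and no wild-type or untreated counterpart, so every comparison was between barcode groups of 1 animal.

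Stem cells at the base of the intestinal crypt renew the epithelium, and their daughters divide in the transit-amplifying zone before they differentiate. They are held in place by Wnt ligands, whose signal is amplified by R-spondins acting through Lgr5 and its relatives and is limited by the ubiquitin ligases Rnf43 and Znrf3. In mouse small intestine they lie between Paneth cells, which supply Wnt, EGF and Notch ligands, and most of them divide.

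Depth differed between the groups. Members held a median of 2592 nuclear-encoded UMIs (range 1014 to 13306), cycling barcodes 3780 and other barcodes 1104, and the medians of ATAC fragments in peaks were 11288, 13690 and 5794. RNA levels are therefore given as UMIs per 1,000,000 nuclear-encoded UMIs (CPM) and accessibility as fragments per 1,000,000 fragments in peaks (FPM), both summed over a group. With 1 animal there was no replicate, so no p-value was computed, and intervals (95%, exact Poisson or binomial) cover counting error only. A gene or peak was called higher or lower when it differed by at least 1.5-fold, the interval of the ratio excluded no change, and both groups together held at least 20 counts. The thresholds apply to UMIs as counted, so they are easier to reach in deep barcodes: with all 3 sums scaled to the same depth, 166 barcodes met the rule and 112 of them were among the 254 members.

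Lgr5, the R-spondin receptor, gave 868 of the members' stem UMIs (39.7%), Smoc2, a secreted matrix-associated protein, 596 (27.3%) and Htr4, a serotonin receptor, 421 (19.3%). Cyyr1, a small transmembrane protein, gave 214 (9.80%), Tnfrsf19, a TNF receptor family member also called Troy, 69 (3.16%), and Ascl2, the Wnt-responsive transcription factor of these cells, 16 (0.733%). Membership thus rested mostly on 3 of the 6 genes. The stem sum had a median of 7 UMIs and reached 36. Of the 254 members, 45 had no Lgr5 UMI, 37 no Smoc2 UMI, 82 no Htr4 UMI and 239 no Ascl2 UMI. No member had all 6 genes detected, 89 had 3 of them and 11 reached the threshold on 1 gene. Lgr5 was the largest single part of the sum in 103 members, Smoc2 in 54, Htr4 in 37 and Cyyr1 in 21.

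Because these genes chose the members, their levels are a description. The Lgr5 level was 1093 CPM in members (1022 to 1168), 199.6 in cycling barcodes and 28.4 in other barcodes. Ascl2 was at 20.1 (11.5 to 32.7), 8.23 and 3.18 CPM. Smoc2 was at 750.5 (691 to 813), 294.5 and 58.6 CPM and Htr4 at 530.1 (481 to 583), 225 and 22.2 CPM. Each of the 6 genes was highest in members and lowest in other barcodes. All other RNA contrasts below are between barcodes chosen by RNA and are likewise described, not tested. A Lgr5 UMI was found in 82.3% of members, 25.1% of cycling barcodes and 3.26% of other barcodes. Among the 2950 other barcodes rich in enterocyte markers, which should lack Lgr5, the share was 1.05% at a median of 747 nuclear-encoded UMIs. After each barcode was thinned to 1000 nuclear-encoded UMIs, which left out no member, 6 cycling and 3685 other barcodes, the shares were 63.4, 13.1 and 2.69%, and 0.649% in the enterocyte-marked barcodes.

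Olfm4, a secreted glycoprotein that marks crypt base cells and was not in the rule, was at 2875 CPM in members (2758 to 2995), 1156 in cycling and 619.96 in other barcodes. Members ranged from 0 to 62 Olfm4 UMIs with a median of 7, and 11 had none. An Olfm4 UMI was found in 95.7% of members and in 54.1% of enterocyte-marked barcodes, so single Olfm4 UMIs are read as background and only levels are compared. Among barcodes under both phase thresholds the Olfm4 level was higher at higher stem sums. It was 560.1 CPM at a sum of 0 (6924 barcodes), 1479 at 3 (101 barcodes) and 2103 (1895 to 2326) in the 70 barcodes just outside at 4. The 64 members just inside at 5 were at 2376 (2162 to 2606). The 22 members with sums of 15 to 36 were at 3667 (3272 to 4098). The intervals just inside and just outside the threshold overlapped. At the mitotic threshold, the 11 barcodes at a sum of 5 and the 6 at a sum of 6 held 1224 and 3382 CPM of other mitotic genes. The 14 at a sum of 3 and the 8 at a sum of 4 held 1736 and 1903, above the level at 5. At the S-phase threshold, 18 barcodes at a sum of 4 and 23 at a sum of 5 held 1569 and 1777 CPM of other S-phase genes.

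**Figure D1:**
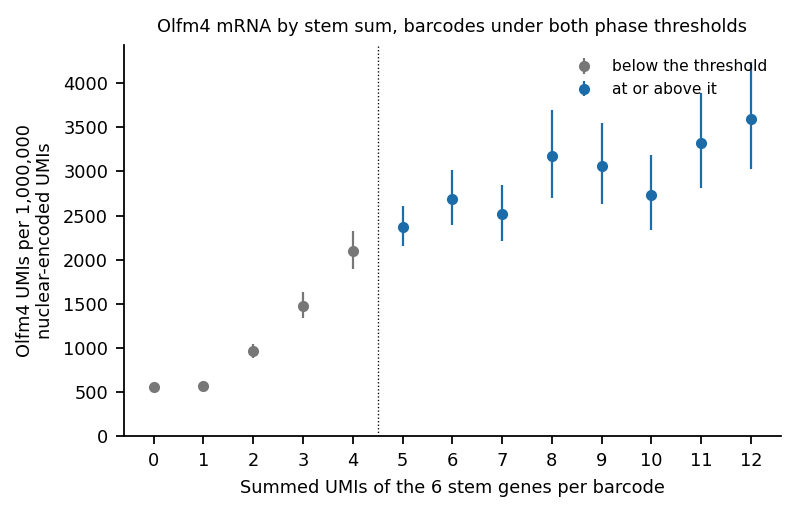
Olfm4 UMIs per 1,000,000 nuclear-encoded UMIs (vertical axis) against the summed UMIs of the 6 stem genes per barcode (horizontal axis) in barcodes under both phase thresholds, with 95% exact Poisson intervals. The level goes from 560.1 at a sum of 0 to 2103 at 4 and 2376 at 5, where membership starts.

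The stem label was next checked against markers of other epithelial lineages. Barcodes were called marked when the markers of a lineage reached 20 UMIs per 1000 nuclear-encoded UMIs, a cut chosen with the data in view. Of the 254 members 46 were marked (18.1%, 13.6 to 23.4%), against 8.31% of cycling and 61.6% of other barcodes. Paneth markers (antimicrobial products such as Lyz1 and defensins) marked 28 members, goblet markers 11, tuft markers 4, enterocyte markers 2 and enteroendocrine markers 1. The remaining 208 members carried the stem genes without a marked second lineage. Lymphocyte markers summed to 28 UMIs with 5 of 10 genes at 0, and stromal and endothelial markers to 1 UMI with 7 of 8 genes at 0. The lymphocyte markers were at 35.3 CPM in members (23.4 to 51.0), 7.61 in cycling and 27.6 in other barcodes. Ptprc and Skap1 were higher than in cycling barcodes, at log2 ratios of 2.55 and 2.99, and Skap1 than in others at 1.21. Of the 28 UMIs 21 lay in marked members, and unmarked members were at 12.1 CPM.

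**Figure D2:**
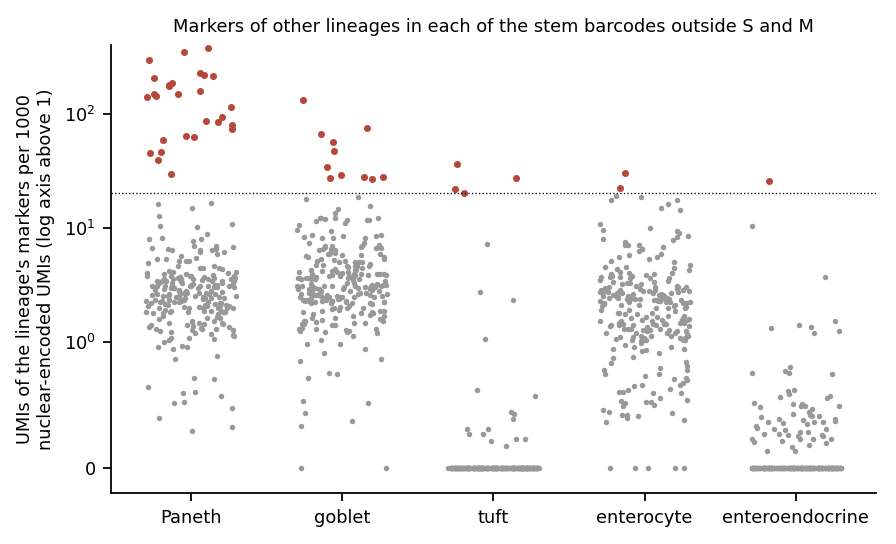
UMIs of each lineage's markers per 1000 nuclear-encoded UMIs (log axis above 1) in each of the 254 members, 1 point per barcode; the dotted line is the cut at 20 and red points are marked barcodes. The 28 barcodes above the cut for Paneth markers form the largest marked set.

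Of the 21705 Paneth marker UMIs in members, 19966 lay in the 46 marked members of all lineages. The marks were set on these same UMIs, so this share follows in part from the cut. The 9 Paneth markers summed to 27332 CPM over all members, 3016 over unmarked members, 7325 over cycling and 16729 over other barcodes. Lyz1, the lysozyme of Paneth granules, was at 5096 over all members and 239 over unmarked ones. The 28 Paneth-marked members held Lgr5 at 1187 CPM (1003 to 1395), and the unmarked members 1143 (1057 to 1234). They held less Olfm4, 1534 against 3420, less Smoc2, 436 against 872, and 0 Ascl2 UMIs, where 3 counts would be 24.2 CPM and unmarked members were at 24.3. The marked members of all lineages held 7246 CPM of the other stem cell genes and the unmarked ones 15081. Their median Scrublet doublet score was 0.111 against 0.0363, and their median depth 4335 against 2400 nuclear-encoded UMIs. Scrublet set no usable threshold and marked 0 barcodes, so doublets remain, and their part in the marked members was not tested. Below, a change of a named call without the marked barcodes is given beside it. In comparisons with other barcodes, the marked ones were then left out of the members only.

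Of the stem cell genes outside the rule, 28 could be compared with cycling barcodes, and 20 were higher in members and 1 lower. Over all 12790 genes tested, 6.82% were higher and 7.68% lower. Their median log2 ratio was 1.12, where the median of all genes was -0.06. The 4 with the highest ratios were Agr3, a protein disulfide isomerase relative, at 1.92, Nav1, a neuron navigator protein, at 1.76, Igfbp4, an insulin-like growth factor binding protein, at 1.73, and Msi1, the RNA-binding protein Musashi, at 1.71. Msi1 was at 84.4 CPM in members and 25.8 in cycling barcodes. Among the abundant genes, picked with their values in view, Slc12a2, a sodium, potassium and chloride cotransporter, was at 3341 CPM in members (3215 to 3470), 1365 in cycling and 351 in other barcodes. Rgmb, a BMP co-receptor, was at 594 (542 to 651), 246 and 67.5 CPM. The gene called lower was Csrp2, a LIM domain protein, at a log2 ratio of -0.64, and at -0.49 and not called without the marked barcodes. Against all other barcodes 24 of 27 were higher and 0 lower, with a median log2 ratio of 2.56, where 18.8% of 13704 tested genes were higher and 13.3% lower and the median was 0.09. Slc14a1, a urea transporter, led at 4.15 (70.5 against 3.96 CPM), followed by Nav1 at 3.28, Slc12a2 at 3.25 and Slco3a1, an organic anion transporter, at 3.19. Among unmarked barcodes 20 of 27 were higher than in cycling barcodes.

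**Figure D3:**
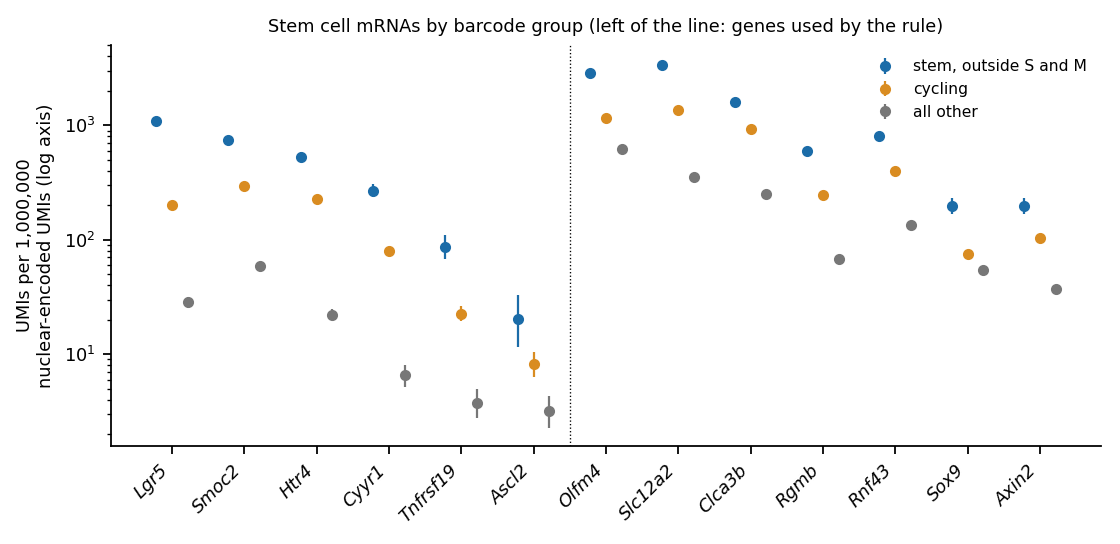
UMIs per 1,000,000 nuclear-encoded UMIs (log axis) of 13 stem cell genes in members (blue), cycling (orange) and all other barcodes (grey), with 95% exact Poisson intervals; the 6 genes left of the dotted line chose the members. Each gene is highest in members, where levels run from 3341 for Slc12a2 to 20.1 for Ascl2.

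The difference to cycling barcodes was smaller when these were restricted to the 489 with a stem sum of 5 or more, which are stem barcodes on the same rule but in S or M phase. Here 7 of 26 other stem cell genes were higher in members and 0 lower, at a median log2 ratio of 0.51, where 4.54% of 11071 genes were higher and 6.4% lower and the median was -0.03. Olfm4 was at 2015 CPM in these cycling stem barcodes (1964 to 2068) and at 2875 in members. Slc12a2 was at 2302 (2247 to 2358) and 3341. Lgr5, which the rule used, was at 506 and 1093, whereas Htr4 was at 462 and 530. The cycling stem barcodes were deeper, with a median of 4801 nuclear-encoded UMIs, so the same stem sum stands for a lower level in them.

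Members with higher stem sums held more of some stem genes that the rule did not use. Slc12a2 was at 3094 CPM (2849 to 3355) in the 64 members at a sum of 5 and 4396 (3962 to 4865) in the 22 members at 15 or more. Rnf43 was at 660 (549 to 786) and 999.1 (798 to 1235). Axin2 was at 190.1 (133 to 263) and 235 (144 to 363), a difference within the counting error. The share of marked barcodes was 20.3% at a sum of 5 and 13.6% at 15 or more.

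The Wnt feedback and target genes were higher as a group. Against cycling barcodes 9 of 16 tested were higher and 0 lower, with a median log2 ratio of 0.97. Nkd1, an intracellular Wnt inhibitor, was at 10.1 CPM in members and 2.00 in cycling barcodes, Prox1, a homeobox factor, at 20.1 and 7.11, and Bambi, a pseudoreceptor that limits BMP signals, at 11.3 and 4.24. Without the marked barcodes these 3 calls were lost, on 1, 8 and 1 UMIs in members, and 8 of 14 tested genes of the list were higher. Sox9, a crypt transcription factor, was at 196 CPM in members (167 to 230), 75.2 in cycling and 54.0 in other barcodes. Against other barcodes 10 of 16 were higher and 1 lower, led by Mecom, a zinc finger transcription factor, at a log2 ratio of 2.89, Cd44, a hyaluronan receptor, at 2.63, Rnf43 at 2.59 and Axin2, a scaffold of the destruction complex that Wnt itself induces, at 2.42. Rnf43 was at 807 CPM in members, 398 in cycling and 134 in other barcodes, and Axin2 at 199, 103 and 37.1. The receptors were less different. Of 11 Wnt receptors and co-receptors 0 were higher than in cycling barcodes and 1, Fzd5, was lower at -0.63 (-0.55 and not called without the marked barcodes). Against other barcodes 4 of 12 were higher, namely Ror2 (1.97), Fzd6 (1.06), Lgr4 (0.84) and Lrp5 (0.65), and 0 were lower. Against the cycling stem barcodes 1 of 15 Wnt feedback genes, Sox9, was higher and the median was 0.20.

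The Eph and Notch systems, which position cells along the crypt and choose between absorptive and secretory fates, gave calls in both directions. Ephb3, a receptor of crypt base cells, was at 39.0 CPM in members, 12.3 in cycling and 6.44 in other barcodes, and Epha7 at 22.7, 7.86 and 3.80. Efnb2, an ephrin ligand of the EphB receptors, went the other way at 27.7, 53.8 and 128. Of 10 Eph receptors and ephrins tested, 3 were higher and 1 lower than in cycling barcodes, and 5 higher and 4 lower than in other barcodes. Of 17 Notch pathway genes only Maml2, a coactivator, was higher than in cycling barcodes (log2 ratio 0.80) and 0 were lower, a share near the 6.82% of all genes that were higher. Against other barcodes 5 were higher and 2 lower, with the receptors Notch2 at 2.21 and Notch1 at 2.15, Maml2 at 1.77 and Dtx4, a ubiquitin ligase of the pathway, at 1.73.

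Genes of growth factor signals gave few calls against cycling barcodes over all members. Of 12 genes of the EGF receptor family, Nrg1, an ErbB3 ligand, was higher than in cycling barcodes at 2.09 and Erbb3 at 0.61, and 0 were lower. Over all genes 6.82% were higher and 7.68% lower. Without the marked barcodes Areg (1.17), Ereg (2.01) and Btc (1.20) of this family were higher as well. They held 11, 5 and 12 UMIs in unmarked members. Nrg1 and Erbb3 stayed higher there, at 2.71 and 0.70, where 6.88% of genes were higher and 7% lower. The Nrg1 ratio turned to -0.84 without the highest 8% of doublet scores and to -1.14 at a stem sum of 8 or more. Nrg1 was lower than in other barcodes, at -0.91 (23.9 against 45.1 CPM), and not called at -0.45 without the marked barcodes. Of 14 BMP pathway genes, 0 were higher and Smad6, an inhibitory Smad, was lower than in cycling barcodes at -1.34, near the 7.68% of all genes that were lower. Against other barcodes, where 18.8% of all genes were higher and 13.3% lower, 2 BMP genes were higher and 6 lower, among them Bmp7 at 1.82 and Smad7 at -1.35.

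The genes of division outside the rule show how far the members stood from the cycling barcodes. All 46 mitotic genes tested were lower in members, at a median log2 ratio of -3.31. Ckap2l, a spindle protein, was at 1.26 CPM against 46.5, a log2 ratio of -5.21 on 1 UMI (-10.52 to -2.72), and Tpx2, which nucleates spindle microtubules, at 3.78 against 132 (-7.41 to -3.58). Against other barcodes 2 of 45 were higher and 3 lower at a median of -0.06, where both groups had to stay below the same mitotic threshold. S-phase genes behaved differently. Of 40 tested, 28 were lower than in cycling barcodes and 0 higher (median -1.22), while 24 were higher than in other barcodes and 0 lower (median 1.06). Clspn, a replication checkpoint adaptor, was at -4.11 (-6.40 to -2.56) and Cdc45, a helicase component, at -3.71 (-6.76 to -1.84) against cycling barcodes. Pold1, the catalytic subunit of DNA polymerase delta, was at 1.92 and Dna2, a nuclease and helicase, at 1.88 against the others. DNA repair genes followed, with 17 of 22 lower than in cycling and 12 of 20 higher than in other barcodes. Rad51b, a recombination factor, was at 277 CPM in members and 40.1 in others.

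Among 22 G1 regulators 10 were lower and 2 higher than in cycling barcodes. E2f7 and E2f8, repressors that act late in S phase, were at -4.47 (-7.52 to -2.61) and -3.30, and Ccne1, cyclin E1, at -3.17 (-8.49 to -0.66). The 2 higher genes were Ccnd3, cyclin D3, at 1.33, and Btg2, an antiproliferative gene, at 0.91, both named after their values were seen. Against other barcodes Ccnd3 was at 1.92 and E2f1 at 1.78 (but -0.070 under the depth-scaled rule), and Cdkn1a, the p21 inhibitor, at -1.48. Within the members, 63 held no UMI of any of the 17 phase genes and 191 held at least 1. Between these, 1 of 22 other stem cell genes was higher in the 63 and 0 were lower, at a median log2 ratio of 0.09, where 2.94% of 6692 genes were higher and 3.51% lower. The 63 also held more Paneth marker UMIs, 40738 against 23484 CPM, and more tuft marker UMIs, 1768 against 232.

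**Figure D4:**
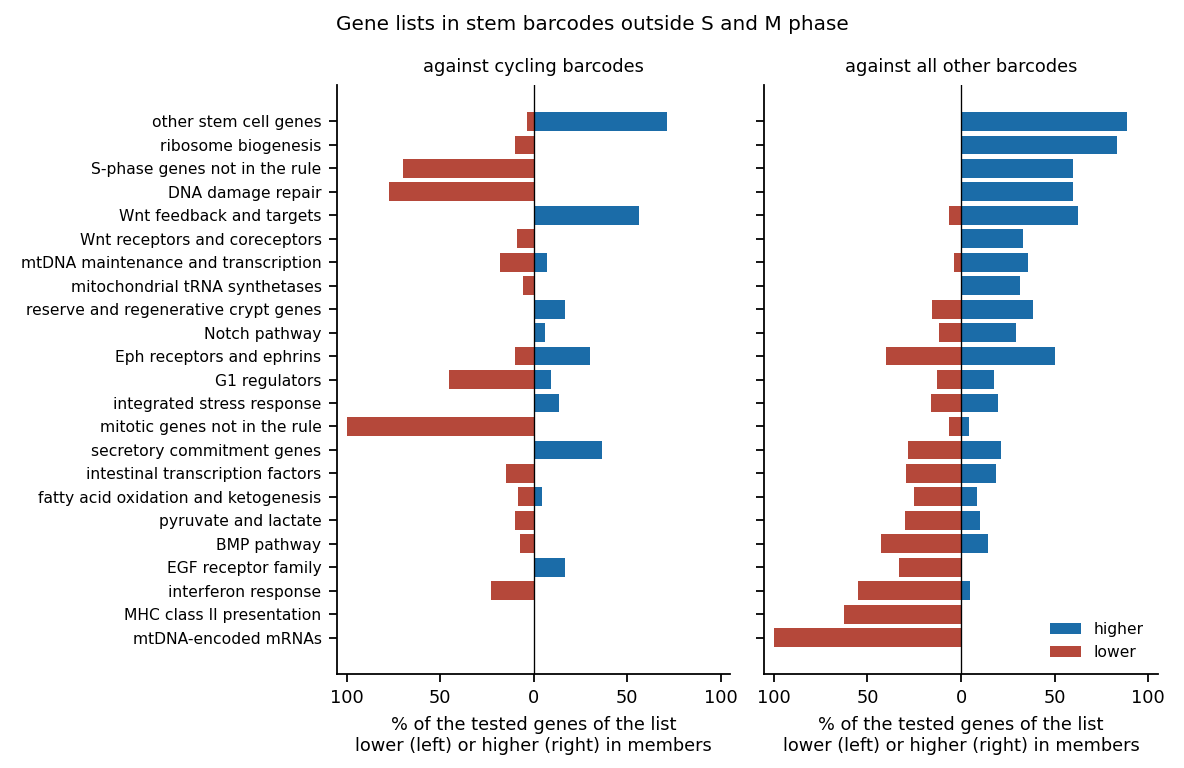
Share of the tested genes of each of 23 lists that was called lower (left, red) or higher (right, blue) in members, against cycling barcodes (left panel) and all other barcodes (right panel). Other stem cell genes and Wnt feedback genes are higher in both, while S-phase, DNA repair and ribosome biogenesis genes change side or appear against others alone.

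Ribosome biogenesis genes were mostly higher than in other barcodes and near the level of cycling ones. Of 30 tested, 25 were higher than in other barcodes and 0 lower, at a median of 1.12, with Utp20, of the small subunit processome, at 97.0 against 25.8 CPM. Against cycling barcodes 0 were higher and 3 lower, at a median of -0.16. For glycolysis and pyruvate use, Pfkp, a phosphofructokinase, and Ldha, a lactate dehydrogenase subunit, were the 2 of 20 genes lower than in cycling barcodes, at -0.95 and -0.70. This share was near the 7.68% of all genes that were lower. Without the marked barcodes Hk2 of this list was higher than in cycling barcodes, at 0.74. Against the cycling stem barcodes neither Pfkp nor Ldha was called, at -0.28 and -0.21. Without the marked barcodes Pfkp was lower there, at -0.61.

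The tRNA mutation lies in mtDNA, whose mRNAs took 6.25% of all UMIs in members (6.21 to 6.28%), 5.84% in cycling and 12.6% in other barcodes. The order of members and cycling barcodes turned at a stem sum of 8 or more (4.96 against 5.84%) and under the depth-scaled rule (4.69 against 4.96%). Of the 13 mRNAs 0 were called against cycling barcodes, at a median log2 ratio of 0.14 per nuclear-encoded UMI. All 13 were lower than in other barcodes, at a median of -1.68, from -1.82 for mt-Co3 to -1.31. This contrast includes barcodes above 80% mtDNA-encoded UMIs. Without these, 5008 of the 7886 other barcodes and 252 of the 254 members remained. All mtDNA-encoded RNA, ribosomal RNA included, took 53.8% of UMIs in members, 52.6% in cycling and 71.7% in other barcodes, and single members ranged from 14.2 to 80.9%. Per 1,000,000 UMIs of all kinds, rather than nuclear-encoded UMIs, the median log2 ratio of all genes to other barcodes moved from 0.09 to 0.80, and 6215 genes were then higher and 551 lower. The mutation load of single barcodes was not analysed here. Of 17 mitochondrial tRNA synthetases 0 were higher and 1, Mars2 for methionine, was lower than in cycling barcodes at -1.36. This share was near the 7.68% of all genes that were lower. Aars2, the synthetase for alanine, held 4 UMIs in members and a log2 ratio of -0.64 (-2.56 to 0.79). Integrated stress response genes gave 3 of 22 higher and 0 lower than in cycling barcodes, where 6.82% of all genes were higher and 7.68% lower. Of these Nupr1, a stress-induced chromatin protein, was at 2.29 over all members but 0.51 in the unmarked comparison. Sesn2, a leucine sensor, was at 1.41 and Vldlr, a lipoprotein receptor, at 1.20. Without the marked barcodes Atf3 of this list was also higher than in cycling barcodes, at 0.80. Mthfd2 and Mthfd1l were then lower, at -0.87 and -0.68, where 6.88% of genes were higher and 7% lower.

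Genes of MHC class II presentation and the interferon response were mostly at or below the level of other barcodes. The summed lymphocyte markers, at 35.3 CPM in members (23.4 to 51.0) and 27.6 in other barcodes, did not differ beyond counting error. Unmarked members were at 12.1 CPM. Only Skap1 of these markers was called against other barcodes, and it held 0 UMIs in unmarked members. Of 8 genes of MHC class II presentation, 0 were called against cycling barcodes. Without the marked barcodes Ciita of this list was higher than in cycling barcodes, at 1.10. In comparison with others 5 were lower, led by H2-Aa at -1.59, where 18.8% of all genes were higher and 13.3% lower. Of 20 interferon response genes 1 was higher and 11 were lower than in other barcodes, at a median of -0.94, with Rsad2 at -3.05 on 1 UMI in members (-8.36 to -0.54). Reserve and regenerative crypt genes gave 2 of 12 higher than in cycling barcodes and 0 lower, where 6.82% of all genes were higher and 7.68% lower. The 2 were Ccn1, a matricellular YAP target, at 1.13 and Hopx, a homeodomain-only protein, at 0.86 (144 against 79.0 CPM). Clu, Ly6a, Anxa1, Msln, Spp1 and Ccn2 were at 0 UMIs in members, each allowing up to 3.78 CPM. Of 11 secretory commitment genes 4 were higher and 0 lower than in cycling barcodes, namely Pou2f3, the tuft cell factor, at 2.19, Gfi1, a zinc finger repressor of secretory cells, at 1.53, Foxa3 at 1.15 and Sox4 at 1.13. Gfi1 held 8 UMIs in members, 6 of them in the marked barcodes. All 9 Paneth markers and 7 of 8 tuft markers were higher too. Without the marked barcodes 4 of 9 Paneth and 3 of 8 tuft markers were higher than in cycling barcodes, where 6.88% of genes were higher and 7% lower. Against other barcodes, which kept their marked barcodes, all 9 Paneth markers were lower in unmarked members, at a median of -2.53. There 20.1% of genes were higher and 13.5% lower. Only the members were filtered on these markers, so this comparison is no check of them. All 14 enterocyte markers were lower than in other barcodes, at a median of -2.03.

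Outside the lists, the 10 genes with the highest ratios to cycling barcodes were Dgki, St18, Mptx2, 6 defensin genes and Itpr2, at log2 ratios from 2.75 for Dgki to 1.87 for Itpr2. Defensin genes are near-identical copies, so their single values are uncertain. Without the marked barcodes all 10 ratios were smaller: Dgki was at 1.69, Itpr2 at 1.28, St18 and Mptx2 at 1.22, and the defensin genes ranged from 0.04 for Defa41 to 1.11 for Defa29. The leading genes of unmarked members were then Dgkg, a diacylglycerol kinase, at 1.83 (1.49 to 2.15), Sorbs2, an actin adaptor, at 1.72 (1.58 to 1.85), and Chrm3, the muscarinic acetylcholine receptor M3, at 1.61 (1.45 to 1.76). Sorbs2 was at 938 CPM in unmarked members and 286 in unmarked cycling barcodes. The 10 lowest against cycling barcodes were led by Espl1, separase, at -4.91 (-10.22 to -2.42) and Neil3, a DNA glycosylase, at -4.71. They were cell division or repair genes except Sst, the somatostatin of enteroendocrine D cells, which held 1 UMI in members. Against other barcodes the highest were Limch1, an actomyosin regulator, at 3.79 (152 against 11.0 CPM), Sorbs2 at 3.51 and Cttnbp2, a cortactin-binding protein, at 3.47.

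Chromatin accessibility was the second readout of the same barcodes and entered the rule only through the minimum of 1000 peak counts, which all 3 groups met. It was summed over peaks within 1000 bases of the annotated starts of a gene. All 6 rule genes had such peaks. At Lgr5 the members gave 34.3 FPM, cycling barcodes 20.0 and others 9.94, and the log2 ratio to cycling barcodes was 0.78 (0.48 to 1.07). At Ascl2 the values were 51.5, 30.1 and 11.7, with a ratio of 0.77 (0.53 to 1.01), although Ascl2 mRNA was the scarcest of the 6. Lgr5 and Ascl2 were the 2 of 6 promoters called higher than in cycling barcodes. Over all 15211 genes with a promoter peak 3.63% were higher and 1.25% lower. Smoc2 was at 33.7, 24.5 and 12.4 FPM (0.46), Htr4 at 41.4, 30.3 and 11.7 (0.45) and Tnfrsf19 at 42.9, 33.4 and 15.8 (0.36), under the 1.5-fold limit. Cyyr1 gave 22 fragments in members and a ratio of 0.19 (-0.52 to 0.83). Against other barcodes all 6 were higher, at a median of 1.62, where 15.2% of promoters were higher and 2.75% lower. In enterocyte-marked barcodes the Lgr5 promoter gave 5.65 FPM and the Ascl2 promoter 5.597.

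**Figure D5:**
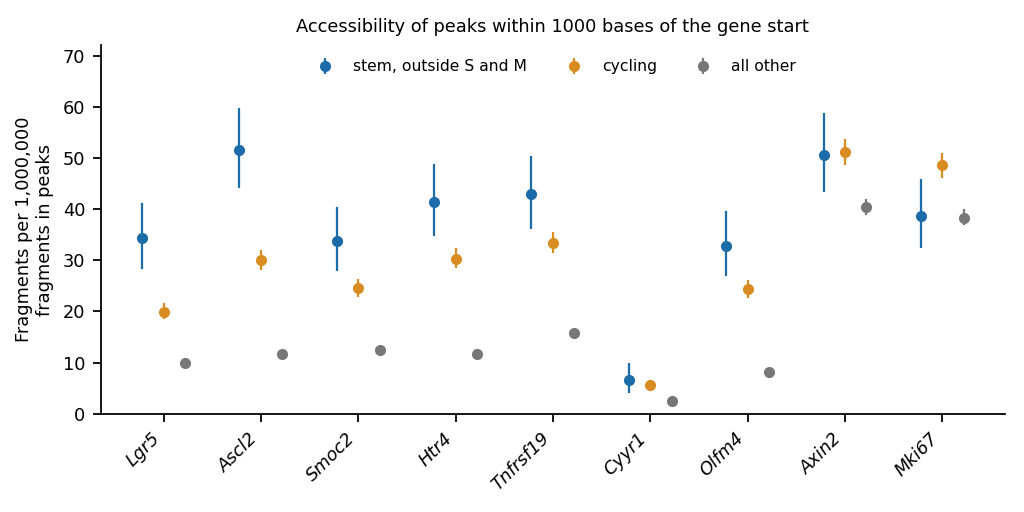
ATAC fragments per 1,000,000 fragments in peaks over the promoter peaks of 9 genes in members (blue), cycling (orange) and all other barcodes (grey), with 95% exact Poisson intervals. Lgr5 (34.3 against 20.0) and Ascl2 (51.5 against 30.1) separate members from cycling barcodes, and Axin2 (50.6 against 51.2) does not.

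Promoter sequences are shown for 4 genes: Ascl2, whose promoter was called higher, Tnfrsf19, whose promoter was not called while its wider window had the highest ratio of the 6, Olfm4, a stem gene outside the rule, and Axin2, whose mRNA was higher in members while its promoter peak was not. The Ascl2 and Tnfrsf19 windows each overlap a deposited peak. For Olfm4 and Axin2 no overlap was found in the list of peaks near stem genes that was searched. The full peak set was not searched, so whether a peak covers their printed bases is not known. The printed windows are the 250 bases before the start in RefSeq on GRCm38.p6, the same assembly as mm10, read 5′ to 3′ on the gene's strand. RefSeq promoters were matched for 5 of the 7 genes looked up. Ascl2, Tnfrsf19, Cyyr1, Olfm4 and Axin2 were matched, Lgr5 and Smoc2 were not, and Htr4 was not looked up. Capitals mark matches on either strand to CCCCNCCC (the KLF and SP type), ATCAAAG (the core bound by TCF/LEF, the transcription factors of the Wnt pathway) and CAGCTG (an E-box), and overlapping matches run together. Among 32851 promoters of this length 30.8% hold the first, 3.21% the second and 13.001% the third. The windows are chr7:142969265-142969514 on the minus strand for Ascl2, chr14:61046856-61047105 and chr14:61037988-61038237 on the minus strand for 2 starts of Tnfrsf19, chr14:80000052-80000301 on the plus strand for Olfm4, and chr11:108920099-108920348 on the plus strand for Axin2.
Ascl2: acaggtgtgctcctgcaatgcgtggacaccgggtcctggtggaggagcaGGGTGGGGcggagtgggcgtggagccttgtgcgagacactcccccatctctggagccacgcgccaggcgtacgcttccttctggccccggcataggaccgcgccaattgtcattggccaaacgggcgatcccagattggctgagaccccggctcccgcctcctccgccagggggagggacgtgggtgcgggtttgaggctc
Tnfrsf19 start 1: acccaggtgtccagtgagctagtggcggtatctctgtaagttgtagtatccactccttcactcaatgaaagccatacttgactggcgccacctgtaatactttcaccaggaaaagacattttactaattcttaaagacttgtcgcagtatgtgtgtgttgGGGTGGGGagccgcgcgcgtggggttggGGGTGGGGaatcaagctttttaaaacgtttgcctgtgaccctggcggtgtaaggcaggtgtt
Tnfrsf19 start 2: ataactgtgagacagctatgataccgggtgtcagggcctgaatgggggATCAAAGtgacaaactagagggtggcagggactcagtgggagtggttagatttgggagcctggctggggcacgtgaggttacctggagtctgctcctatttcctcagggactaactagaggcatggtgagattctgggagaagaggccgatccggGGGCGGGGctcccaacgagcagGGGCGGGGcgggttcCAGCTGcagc
Olfm4: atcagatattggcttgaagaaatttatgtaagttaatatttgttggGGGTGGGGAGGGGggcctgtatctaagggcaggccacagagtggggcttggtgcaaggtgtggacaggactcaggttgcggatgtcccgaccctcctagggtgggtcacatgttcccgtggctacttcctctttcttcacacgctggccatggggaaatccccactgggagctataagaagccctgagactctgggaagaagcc
Axin2: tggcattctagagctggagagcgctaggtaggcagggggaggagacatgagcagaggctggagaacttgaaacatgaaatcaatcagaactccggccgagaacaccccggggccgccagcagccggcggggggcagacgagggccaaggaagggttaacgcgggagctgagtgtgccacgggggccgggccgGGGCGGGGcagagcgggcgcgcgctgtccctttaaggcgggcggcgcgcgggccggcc

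The downstream start of Tnfrsf19 holds the ATCAAAG match, at position -202, and the CAGCTG match, at -10. All 5 windows hold at least 1 CCCCNCCC match, including the pair that overlaps at -204 and -199 of Olfm4. A match describes letters and says nothing of binding. Of 28 promoters found for 19 of the 28 other stem cell genes, 15 hold CCCCNCCC and 0 hold ATCAAAG.

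Within 50000 bases of the gene starts the difference varied between the stem genes. Within 50000 bases of the Tnfrsf19 starts the members gave 93.7 FPM, cycling barcodes 56.4 and others 27.0, a log2 ratio of 0.73 (0.56 to 0.91) to cycling barcodes. The peak at chr14:61056801-61057676, 10748 bases from the nearer start, gave 26.6 against 10.3 FPM in cycling barcodes, a ratio of 1.37 (1.02 to 1.71). Within 50000 bases of Lgr5 4 of 12 peaks were higher than in cycling barcodes, where 6.03% of 136214 peaks were higher and 3.73% lower. These were chr10:115586314-115587008 (0.95) and chr10:115587150-115587895 (0.60) at the start, and chr10:115560976-115561864 (0.79) and chr10:115542866-115543764 (1.03) farther off. At Ascl2 5 of 15 peaks were higher, among them chr7:142968704-142969612 over the start (0.90) and chr7:142964181-142964985, 4134 bases away, at 1.76 on 22 fragments in members. At Smoc2 the distal peak chr17:14234660-14235534, 44409 bases from the start, was the 1 of 17 that was higher (0.72), a share near that of all peaks. Of the windows of the other stem genes, Cyyr1 had 0 of 5 peaks called and a log2 ratio of 0.14 (-0.32 to 0.58), Slc12a2 had 1 of 15 higher (0.11) and Rnf43 had 1 of 33 higher (0.15), and Htr4 had 2 of 10 higher (0.44). At Olfm4, whose mRNA was not used, the window gave 166 FPM in members, 114 in cycling and 49.1 in other barcodes (0.55, 0.42 to 0.68), and 7 of 20 peaks were higher and 1 lower. At Axin2 the window did not differ from cycling barcodes (208 against 207, a log2 ratio of 0.00, -0.11 to 0.12), although the mRNA ratio was 0.95.

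Across the genome 8208 of 136214 peaks were higher and 5076 lower than in cycling barcodes. Against other barcodes 21533 of 145679 were higher and 17547 lower (14.8 and 12%). Among peaks with at least 100 fragments in members, the highest ratio to both groups was at chr9:46443119-46444009, 160555 bases from the start of Bud13, with 29.9 FPM in members, 8.49 in cycling and 3.10 in other barcodes. The next to cycling barcodes was chr3:148428842-148429778, 393669 bases from Adgrl2, at 1.65. The peak chr17:15938795-15939705, 112663 bases from Rgmb, was at 1.28 against cycling barcodes, and chr11:112835247-112836110, 53454 bases from Sox9, at 1.02. Both lie nearest to genes whose mRNA was higher in members, but which gene a distal peak acts on was not tested.

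At genes of division the promoters differed less between members and cycling barcodes than the mRNAs did. Of 45 promoters of mitotic genes outside the rule, 0 were higher and 1 lower than in cycling barcodes, at a median log2 ratio of -0.15, whereas all 46 mRNAs were lower at a median of -3.31. Of 40 S-phase promoters 0 were called (median -0.14). Mki67, the proliferation marker of the rule, gave 38.7, 48.5 and 38.3 promoter FPM in members, cycling and other barcodes. Of 30 ribosome biogenesis promoters 2 were higher than in other barcodes, where 25 mRNAs were. The other stem cell genes lay between, with 4 of 28 promoters higher than in cycling barcodes (median 0.19) and 15 of 28 higher than in others (median 0.64).

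At stem and Paneth gene loci the Paneth-marked members gave values above and below those of all members, on few fragments. All members include these 28 barcodes, and whether the differences exceed counting error was not tested. The window of the Paneth-marked members within 50000 bases of Lgr5 gave 101 FPM on 33 fragments, against 77.8 over all members. The same window gave 42.9 in Paneth-marked other barcodes and 30.0 in enterocyte-marked barcodes. The Lgr5 promoter gave 27.6 FPM on 9 fragments in Paneth-marked members, 34.3 over all members and 11.8 in Paneth-marked other barcodes. In the Paneth-marked members the Ascl2 window gave 123 against 174 over all members, and the Olfm4 window 104 against 166. At Mmp7, a gene for a Paneth cell protease, their window also gave 101 FPM on 33 fragments, against 27.7 in cycling and 12.7 in enterocyte-marked barcodes. At Lyz1 it gave 15.3 on 5 fragments, against 24.8 over all members and 32.0 in Paneth-marked other barcodes. Doublets could not be identified among these 28 barcodes.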

How the data were processed

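Gene expression and ATAC libraries of 1 mouse were read from 1 deposited matrix of raw counts per barcode, holding UMI counts for genes and counts for peaks, made by the authors with Cell Ranger ARC 2.0.2 on mm10, per the file headers and the submitters' processing notes. Peaks are 1 set called over all barcodes. Of 12363 barcodes, 9872 held at least 500 UMIs, 300 genes and 1000 peak counts. Of the peak counts 87.6% were even (2 cut sites per fragment), so they were halved, rounding up, to approximate fragments.

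UMIs or fragments were summed per group, divided by the group's nuclear-encoded UMIs or fragments in peaks, and compared as log2 ratios with exact conditional intervals (numpy 2.4.6, scipy 1.17.1). The call rule was tested on simulated data. A sum of 0 was set to 3 counts, which gives a bound. Scrublet in scanpy 1.11.5 marked 0 of 9872 barcodes as doublets, so it had not worked as a filter. Its scores were used only in an alternative and to describe marked and unmarked members. A promoter is the peaks within 1000 bases of a gene's start interval in the deposited feature table. Of 608 listed genes 605 were found.

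Per list, up to 4 called genes with the largest ratios were named, and outside the lists the 10 highest and 10 lowest per comparison with at least 100 UMIs in the higher group were ranked, from which the text names some. Other named genes were chosen after their values were seen. The members, lists and marker sets were chosen with earlier results of these data known. Alternatives covered scaling, count minimums, thinning, mtDNA share, doublet scores, the stem threshold and the marked barcodes. Results of some genes are not reported here.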

Additional observations from a re-analysis of the deposited data

How the results depend on the processing

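The direction of the stem gene and Wnt feedback lists held in each alternative run, and across all lists and named genes 1718 recomputed values stayed near the first, 354 moved and 21 changed sign. The cause of a move was not tested unless the setting itself lowers the counts.

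Members were 3.62% of barcodes without those above 80% mtDNA-encoded UMIs, 1.19% at a stem sum of 8 or more, 4.31% at 3 or more, 1.68% under the depth-scaled rule and 2.15% of 9682 barcodes without the marked members and cycling barcodes (an alternative added after seeing the data). The mtDNA-encoded mRNA share in members was 6.13, 4.96, 6.59, 4.69 and 5.96% in these settings, and 4.98% without the highest 8% of doublet scores.

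Against cycling barcodes 564 genes were higher at a minimum of 100 UMIs, 529 were higher and 639 lower after thinning to 1000 UMIs, and 503 were higher than in cycling stem barcodes, from 872 and 982. Against other barcodes 6215 were higher and 551 lower per 1,000,000 UMIs of all kinds, and 1636 higher after thinning, from 2579 and 1818. Peaks against cycling barcodes were 15017 higher and 12063 lower with counts not halved, 4737 higher at a minimum of 100, 3494 and 2181 after thinning to 5000 fragments (which left out 40 members), and 2903 and 2442 against cycling stem barcodes. Against other barcodes 27408 peaks were lower with counts not halved, and 12480 were higher and 8347 lower after thinning.

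Signs changed as follows, as log2 ratios. To cycling barcodes Nrg1 turned to -0.84 without the highest doublet scores and to -1.14 at a stem sum of 8 or more, and Defa41 to -0.12 under the depth-scaled rule. To other barcodes the depth-scaled rule gave -0.85 for the median of the Paneth markers, -1.02 for Lyz1, -0.51 for Mmp7, -0.56 for Mptx2, -2.48 for Defa41, -1.79 for Defa29 and -0.070 for E2f1. Marked barcodes were left out of the members only, with all 7886 other barcodes kept. The ratios were then -2.53 for the Paneth median, -0.83 for the tuft median, -3.36 for Lyz1 and -1.31 for Mmp7. They were -2.28 for Mptx2, -2.79 for Defa41, -2.30 for Defa29, -0.36 for St18 and -0.38 for Nkd1. The members were filtered on Paneth and tuft markers here, so these signs are no check of those markers. Thinning turned the tuft median to -0.086, and a minimum of 100 UMIs turned the median of Eph receptors and ephrins to -0.30.

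No paired analysis was possible because both libraries come from the same cells of 1 animal. With 1 animal, differences between mice could not be measured, and intervals cover counting error only. Doublets were not removed. A change of a gene with few UMIs was not detectable at this depth.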
